A study of Mus musculus with 7 samples.

Results

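Collagen chains were examined in 7 RNA sequencing libraries of cells given as CD8+ T cells, lymphocytes that kill target cells, taken from ascites, the fluid of the abdominal cavity, in mice that model peritoneal metastasis. The chains were chosen by name, as every symbol made of Col, a type number, a and a chain number, which gave 44 of the 56422 symbols in the table. The 3 treated libraries came from mice given propionate and butyrate together, short-chain fatty acids that gut bacteria make, and the 4 control libraries from mice without that treatment. The series title names ovarian cancer, mannose and anti-PD-1 treatment, neither of which the labels give to these groups, and strain, age, tumour line and dose are not stated in the labels. Treated 1 and treated 2 carry a sample's number, and the third treated library carries a number that no sample has. The labels do not say whether libraries came from separate animals, and the p-values therefore reflect only how far these libraries vary, which may be technical.

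Collagens are the main structural proteins of the extracellular matrix. Each molecule is a helical trimer of chains, made of 1 or several gene products. Fibrillar collagens assemble into tensile fibrils and are made mostly by fibroblasts, basement membrane collagens form the sheet under epithelia, mesothelium and endothelium, and the remaining types link fibrils, form beaded filaments or span the cell membrane. T cells are not known as a main source of any of them.

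The libraries held RNA of several cell types. Values are TPM, a unit corrected for transcript length and scaled to the same total in each library, so the depth is unknown. The summed TPM of 8 CD8 T cell markers was 485 to 2045 in treated and 78.3 to 166 in control libraries. The sum of 10 mesothelial and tumour epithelial markers was 844 to 1588 in treated and 2227 to 2734 in control libraries, and 9 macrophage markers summed to 2089 to 2954 in treated and 4610 to 10690 in control libraries. Endothelial markers summed to 40 to 76.4 in treated and 81.8 to 94.5 in control libraries, pericyte and smooth muscle markers to 2.74 to 2.78 in treated and 3.96 to 4.58 in control libraries, and platelet markers to 14 to 40 in treated and 21 to 34.9 in control libraries. In the limma fit described with the chains, all 8 T cell markers rose, against 1.53% of all symbols. In the same fit 1 of 7 pericyte and 1 of 3 platelet markers fell, against 1.79%. Of 8 endothelial and 9 macrophage markers 0 were called, against 3.33% of all symbols in either direction. At an unadjusted p under 0.05, 2 endothelial and 4 macrophage markers were lower and 0 higher, against 17.5% and 6.45%. Mitochondrially encoded genes held 32.87% of TPM in the third treated library and 13.57% to 18.23% in the other 6. In bulk RNA, fewer cells of a type and less RNA per cell cannot be told apart, and the part of these shifts in the collagen values was not tested.

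Collagen RNA was lower in the treated libraries. Its summed TPM was 238, 147 and 142 in treated 1, treated 2 and the third treated library, against 281, 313, 288 and 282 in controls 1 to 4. The groups did not overlap, and treated 1 lay closest to the controls. The treated mean was 0.603-fold the control mean, and 0.722-fold with median-of-ratios scaling, still without overlap. Without mitochondrially encoded genes it was 0.646-fold. Fibrillar chains summed to 34.9, 19.1 and 21.4 TPM in treated libraries, against 43.2, 53.3, 57.8 and 41.2 TPM in controls. Basement membrane chains summed to 85.3, 54.1 and 50.1 TPM in treated libraries, against 108.9, 123.5, 109.5 and 102.5 TPM in controls. All other chains summed to 117, 73.4 and 70.5 TPM in treated libraries, against 128.5, 136.5, 121.1 and 138 TPM in controls. Each class was thus below the control range in all 3 treated libraries, except that the other chains overlapped with median-of-ratios scaling (74.2 to 111 TPM in treated, 107 to 128 TPM in control libraries) and without mitochondrially encoded genes (87.7 to 142 TPM in treated, 141 to 169 TPM in control libraries). No p is given for sums over the chains.

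**Figure D1:**
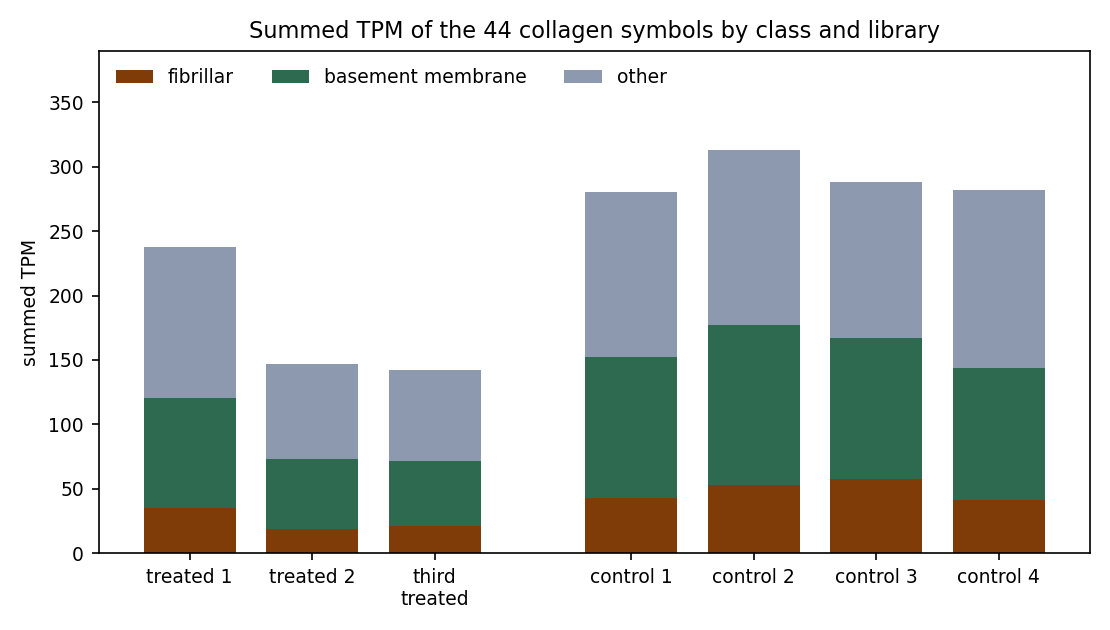
Summed TPM (y axis) of fibrillar, basement membrane and other collagen symbols, stacked, in the 3 treated and 4 control libraries. The treated bars reach 142 to 238 TPM and the control bars 281 to 313 TPM.

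Few chains made up most of this RNA. The 8 chains with a mean of at least 10 TPM over all 7 libraries held 82.3% to 89.4% of collagen TPM. In order of mean level these were Col6a1, Col4a5, Col3a1, Col17a1, Col6a2, Col4a1, Col4a2 and Col4a6. A further 9 chains averaged 1 to 10 TPM, and 27 averaged below 1 TPM. Of those, 6 were not compared because they were above 0 in fewer than 3 libraries. Col9a1, Col9a2, Col11a1, Col19a1 and Col25a1 were listed at 0 in every library, and Col13a1 was listed at 0.07 TPM in control 2 only. The other 38 chains were compared.

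Chains were compared on log2(TPM + 1) with limma over all 24352 symbols above 0 in at least 3 libraries, and called at a Benjamini-Hochberg (BH) adjusted p under 0.05. Of the 38 chains, 3 fell (Col1a2, Col4a1 and Col16a1), where 1.79% of all tested symbols were called lower and 3.33% in either direction. Of the same chains 0 rose in limma, where 1.53% of all symbols did. At an unadjusted p under 0.05, 15 chains were lower and 1, Col23a1, was higher, where 17.5% of all symbols were lower and 6.45% higher. The median log2 fold change was -0.15 over the 38 chains and -0.09 over all symbols, and 32 of the 38 were below 0, as were 65.6% of all symbols. In 16 of the 38 every treated library lay below every control library, against 18.2% of all symbols, and in 0 did every treated library lie above, against 5.28%. With median-of-ratios scaling 13 chains had all treated below all control values, against 11.8% of all symbols, and 25 log2 fold changes were below 0. In 1 chain, Col23a1, all treated values lay above all control values with that scaling, and also without mitochondrially encoded genes. Limma restricted to symbols of at least 1 TPM in at least 3 libraries, which 19 chains passed, called 9 lower and 0 higher, against 7.59% and 4.3% of its 14967 symbols and 11.9% in either direction. In 15 of those 19 the groups stood apart with treated lower, against 25.7% of its symbols. Col18a1 was the 1 chain that passed that filter through control libraries alone. Among all symbols, 437 were called lower and 373 higher, but 689 lower and 1201 higher with median-of-ratios scaling, which moved the median of all symbols by 0.10 and kept the 3 chains.

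**Figure D2:**
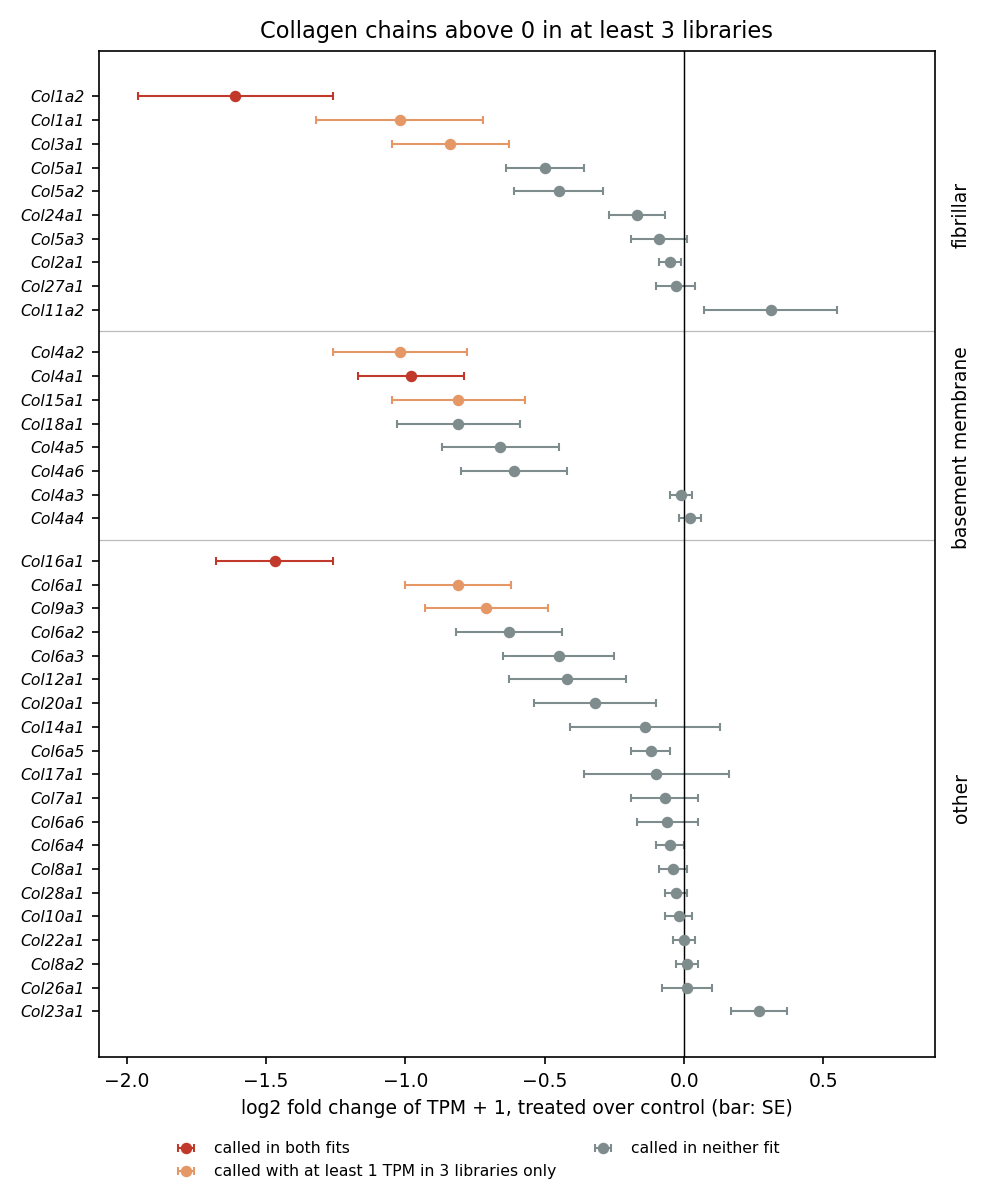
Log2 fold change of TPM + 1, treated over control (x axis), with its limma standard error, for the 38 compared chains in their 3 classes. Col1a2, Col16a1 and Col4a1 were called lower in both fits, at -1.61, -1.47 and -0.98, and 6 further chains only with the 1 TPM filter.

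Among fibrillar chains, Col3a1, which forms the thin fibrils of soft tissues, was the most abundant. It had 28.5, 15.7 and 17.8 TPM in treated libraries, against 32.7, 40.9, 39.2 and 33.7 TPM in controls. All treated values lay below all control values. The log2 fold change was -0.84 (SE 0.21), with a limma BH adjusted p of 0.0667 over all symbols above 0 in at least 3 libraries and 0.0259 with the 1 TPM filter. The call with that filter was lost without treated 2 (0.106), the third treated library (0.078) or control 2 (0.0625).

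Col1a2, the alpha 2 chain of type I collagen, fell. It had 1.71, 0.54 and 1.04 TPM in treated libraries, against 4.56, 5.56, 9.26 and 3.05 TPM in controls. The groups did not overlap, and control 3 was the highest. On the log2 scale the fold change was -1.61 (SE 0.35, limma BH adjusted p = 0.0472), and the means were 1.1 ± 0.587 TPM (SD, n = 3) in treated and 5.61 ± 2.65 TPM (SD, n = 4) in control libraries. Without any 1 library other than treated 1 the adjusted p was 0.0536 to 0.132. With the 1 TPM filter it was 0.00401, and at most 0.0473 without any 1 library.

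Col1a1, the alpha 1 chain of type I collagen, had 1.67, 0.64 and 1.09 TPM in treated libraries, against 2.86, 4.14, 4.73 and 1.81 TPM in controls. The groups stood apart narrowly, treated 1 at 1.67 TPM and control 4 at 1.81 TPM. Treated over control, the log2 fold change was -1.02 (SE 0.30, limma BH adjusted p = 0.0941, and 0.0324 with the 1 TPM filter). That second call was lost without treated 2, the third treated library, control 2 or control 3 (0.0529 to 0.0966).

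The remaining fibrillar chains were low. Col5a1, a type V chain that sits inside type I fibrils, had 0.22, 0.10 and 0.22 TPM in treated libraries, against 0.68, 0.80, 0.96 and 0.30 TPM in controls. Its partner Col5a2 had 1.11, 0.65 and 0.63 TPM in treated libraries, against 1.29, 1.32, 1.55 and 1.57 TPM in controls. Both were without overlap, at log2 fold changes of -0.50 and -0.45, and neither was called (limma BH adjusted p = 0.0826 and 0.139). Col11a2, a cartilage fibril chain, was the 1 compared fibrillar chain with a positive log2 fold change, at 0.31 (adjusted p = 0.458). It had 1.5, 1.24 and 0.36 TPM in treated and 0.65, 0.32, 1.06 and 0.40 TPM in control libraries, which overlapped. Col2a1, Col5a3, Col24a1 and Col27a1 stayed at or below 0.38 TPM in every library. Of the 10 compared fibrillar chains 1 fell, against 1.79% of all symbols. Negative values were found in 9, against 65.6%, with a median log2 fold change of -0.31. Of the 5 that passed the 1 TPM filter 3 were called lower, against 7.59% of all symbols that passed it.

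In the same libraries the 10 fibroblast markers, collagens left out, summed to 96.2 to 197 TPM in treated and 245 to 273 TPM in control libraries. Nearly all of that was Dcn, the proteoglycan decorin, at 191, 106 and 93.8 TPM in treated libraries, against 239, 243, 264 and 253 TPM in controls. Pdgfra, a receptor set here as a defining fibroblast marker, was at 1.09 to 3.7 TPM in treated and 2.54 to 4.35 TPM in control libraries. Lum, another fibroblast proteoglycan, was at most 0.48 TPM in any library. Of the 9 tested fibroblast markers 0 were called in limma, where 3.33% of all symbols were called in either direction. At an unadjusted p under 0.05 in that fit, 5 were lower and 0 higher, against 17.5% and 6.45% of all symbols. With the 1 TPM filter Dcn was called lower (limma BH adjusted p = 0.0137). The part of these markers in the fibrillar values was not tested.

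**Figure D3:**
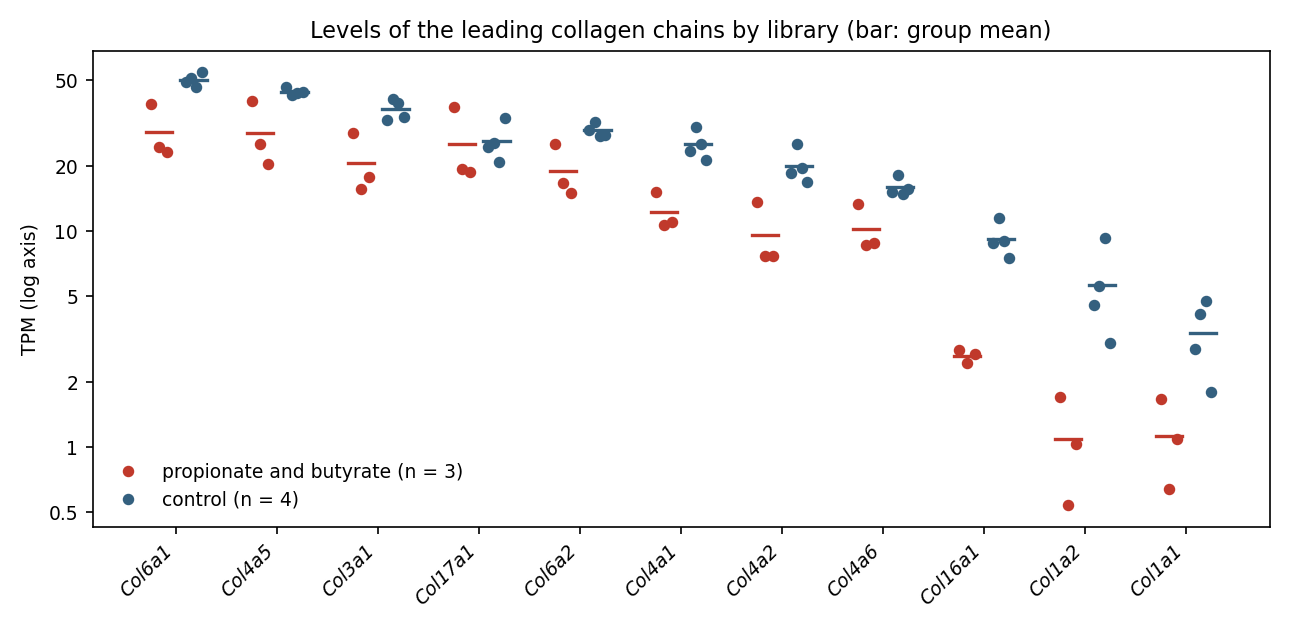
TPM on a log axis in each treated and control library for the 8 most abundant chains, in order of mean level, and for Col16a1, Col1a2 and Col1a1, with group means as bars. Only Col17a1 overlaps between the groups among the 11 chains drawn.

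Basement membrane chains were led by type IV collagen, the network that holds the basement membrane together. Col4a1, a chain of the type IV trimer found in most basement membranes, fell. It had 15.2, 10.7 and 11 TPM in treated libraries, against 23.4, 30.5, 25.4 and 21.5 TPM in controls. The treated libraries all lay below the lowest control. The log2 fold change was -0.98 (SE 0.19, limma BH adjusted p = 0.0377). That call was lost without treated 2 or any 1 control library (0.0632 to 0.103). With the 1 TPM filter it was 0.00809, and at most 0.0306 without any 1 library.

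Col4a2, which joins Col4a1 in the same trimer, had 13.6, 7.66 and 7.7 TPM in treated libraries, against 18.6, 25.4, 19.6 and 16.8 TPM in controls. The groups did not overlap. On the log2 scale the fold change was -1.02 (SE 0.24), close to that of Col4a1, with a limma BH adjusted p of 0.0548, and of 0.0137 with the 1 TPM filter. The call with that filter was lost without the third treated library (0.0613).

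Col4a5 and Col4a6, chains of the type IV network of smooth muscle, mesothelial and some epithelial basement membranes, were abundant as well. Col4a5 had 39.9, 25.4 and 20.5 TPM in treated libraries, against 46.6, 42.5, 43.4 and 44.3 TPM in controls. Col4a6 had 13.4, 8.64 and 8.82 TPM in treated libraries, against 15.2, 18.1, 14.9 and 15.7 TPM in controls. Both were below the control range in all 3 treated libraries, with treated 1 nearest to it. Their log2 fold changes were -0.66 (SE 0.21) and -0.61 (SE 0.19), and neither was called (limma BH adjusted p = 0.106 and 0.105, and 0.0629 and 0.0723 with the 1 TPM filter). Col4a3 and Col4a4, the chains of the kidney glomerular network that also need Col4a5, stayed at or below 0.06 and 0.08 TPM in every library.

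Col15a1 and Col18a1 encode multiplexins, collagens of the basement membrane zone that carry glycosaminoglycan chains. Col15a1 had 2.8, 1.44 and 1.81 TPM in treated libraries, against 3.73, 4.88, 4.66 and 3.59 TPM in controls, and Col18a1, the source of the fragment endostatin, had 0.33, 0.27 and 0.20 TPM in treated libraries, against 1.16, 1.97, 1.51 and 0.49 TPM in controls. Neither pair of groups overlapped. Both log2 fold changes were -0.81 (limma BH adjusted p = 0.0954 and 0.0765). With the 1 TPM filter Col15a1 was called lower (0.0391), a call that without any 1 library other than treated 1 was lost (0.0567 to 0.136), and Col18a1 was not (0.0581). Of the 8 basement membrane chains, all compared, 1 fell, against 1.79% of all symbols. Negative values were found in 7, against 65.6%, with a median log2 fold change of -0.73. Of the 6 that passed the 1 TPM filter 3 were called lower, against 7.59% of all symbols that passed it. In 6 of the 8 every treated library lay below every control library, against 18.2% of all symbols.

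Several mesothelial and tumour epithelial markers were lower as well. Krt19, a keratin of simple epithelia and mesothelium, had 309, 185 and 158 TPM in treated libraries, against 603, 889, 634 and 595 TPM in controls. Msln, mesothelin, had 161, 98.6 and 83.6 TPM in treated libraries, against 202, 184, 189 and 170 TPM in controls. Of these 10 markers 4 fell, Krt19 among them and Msln not (limma BH adjusted p = 0.087), against 1.79% of all symbols. With the 1 TPM filter 7 of 9 were called lower, against 7.59% of all symbols that passed it. Of the endothelial and mural markers set as defining, Cdh5, Rgs5 and Myh11 were near 0, Cdh5 below or at 0.23 TPM, Rgs5 below or at 0.34 TPM and Myh11 below or at 0.73 TPM everywhere, while Pecam1, which leukocytes also carry, was at 8.76 to 21.3 TPM in treated and 12.7 to 14.9 TPM in control libraries. Other members of those lists were not near 0. Esam, an adhesion molecule of endothelium and platelets, was at 28.8 to 56.2 TPM in treated and 63.4 to 74.5 TPM in control libraries, and Flt1, a VEGF receptor, was at 1.75 to 2.56 TPM in treated and 3.82 to 5.59 TPM in control libraries. Both were called lower with the 1 TPM filter alone (limma BH adjusted p = 0.0301 and 0.0255). Acta2, smooth muscle actin, fell, with 0.5 to 0.84 TPM in treated and 1.51 to 2.11 TPM in control libraries (limma BH adjusted p = 0.0499). With the 1 TPM filter, which it passed through control libraries alone, the limma BH adjusted p was 0.0462. For the marker calls no result with a library left out is given. The part of mesothelial, epithelial, endothelial and mural cells in the basement membrane values was not tested.

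Per 100 TPM of mesothelial and epithelial markers, all collagen chains together gave 14.5 to 16.8 TPM in treated and 11.5 to 12.7 TPM in control libraries. Basement membrane chains gave 5.36 to 5.94 TPM in treated and 4.52 to 4.79 TPM in control libraries by the same measure. On this scale the treated libraries were above the controls, and collagen was lower by less than the sum of these markers was. The members of that sum differed unequally. The log2 fold changes were -1.68, -1.19 and -1.09 for the keratins Krt19, Krt8 and Krt18, but -0.69 for Wt1 and -0.76 for Msln. Per 100 TPM of fibroblast markers, a sum that was nearly all Dcn, all chains gave 121 to 148 TPM in treated and 106 to 126 TPM in control libraries. Per 100 TPM of endothelial markers they gave 247 to 355 TPM in treated and 309 to 353 TPM in control libraries. Both of these measures overlapped. Per 100 TPM of mesothelial and epithelial markers, fibrillar chains gave 1.9 to 2.54 TPM in treated and 1.85 to 2.49 TPM in control libraries, which overlapped.

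Beaded filament collagen, type VI, anchors cells to the surrounding matrix. Col6a1 was the most abundant collagen chain of all, with 38.8, 24.6 and 23.4 TPM in treated libraries, against 49, 51, 46.3 and 54.3 TPM in controls. Its groups did not overlap. Treated over control, the log2 fold change was -0.81 (SE 0.19, limma BH adjusted p = 0.0548, and 0.0226 with the 1 TPM filter). The call with that filter was lost without treated 2, the third treated library or control 4 (0.0573 to 0.0841).

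Col6a2, its partner, had 25.4, 16.7 and 15 TPM in treated libraries, against 29.6, 31.9, 27.7 and 27.8 TPM in controls. These values did not overlap, and at a log2 fold change of -0.63 (SE 0.19) the chain was not called (limma BH adjusted p = 0.0988, and 0.0655 with the 1 TPM filter). Col6a3, the long chain that completes the usual type VI trimer, had only 0.43, 0.08 and 0.31 TPM in treated libraries, against 0.55, 1.4, 0.83 and 0.30 TPM in controls. Its groups overlapped (log2 fold change -0.45, adjusted p = 0.22). Col6a4, Col6a5 and Col6a6, chains that can take the place of Col6a3, reached 0.10, 0.30 and 0.71 TPM at most. Measured per length, the RNA of the third chain was therefore far below that of the other two in all 7 libraries.

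Of the fibril-associated chains, which decorate the surface of fibrils, Col16a1 fell. It had 2.81, 2.46 and 2.7 TPM in treated libraries, against 8.81, 11.5, 9.05 and 7.53 TPM in controls. The treated values were close together and the lowest control was well above them. The log2 fold change was -1.47 (SE 0.21, limma BH adjusted p = 0.0265), and the means were 2.66 ± 0.179 TPM (SD, n = 3) in treated and 9.22 ± 1.65 TPM (SD, n = 4) in control libraries. The adjusted p was 0.0568 to 0.0602 without control 1, 2 or 3. It was 0.000863 with the 1 TPM filter, and at most 0.00786 without any 1 library. Its signal was spread over several of its 13 transcript rows, 2 of which were listed at 0 throughout, and the leading row held 29.6% to 48.4%.

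Col9a3, a type IX chain, had 3.4, 3.14 and 2.99 TPM in treated libraries, against 6.31, 5.78, 6.82 and 4.53 TPM in controls, without overlap. On the log2 scale the fold change was -0.71 (SE 0.22, limma BH adjusted p = 0.101, and 0.0478 with the 1 TPM filter). That call was lost without any 1 library other than treated 1 (0.0602 to 0.147). Its type IX partners Col9a1 and Col9a2 were among the chains listed at 0 throughout. Col12a1, Col14a1 and Col20a1, at log2 fold changes of -0.42, -0.14 and -0.32, were not called. Col14a1 had 3.13, 1.54 and 3.54 TPM in treated libraries, against 3.11, 2.56, 3.82 and 2.64 TPM in controls, which overlapped.

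Col17a1, the transmembrane collagen of hemidesmosomes, which fasten epithelial cells to the basement membrane, stood apart from the other abundant chains in its overlap. It had 37.5, 19.3 and 18.8 TPM in treated libraries, against 24.6, 25.6, 20.9 and 33.5 TPM in controls. Treated 1 was the highest library and the other treated libraries the lowest. Treated over control, the log2 fold change was -0.10 (SE 0.26, limma BH adjusted p = 0.853). As a share of collagen TPM, transmembrane chains made up 13.3% to 15.9% in treated and 7.26% to 11.95% in control libraries. Col23a1, another membrane-spanning collagen, was low, at 0.33, 0.53 and 0.16 TPM in treated libraries, against 0.15, 0.04, 0.06 and 0.17 TPM in controls. Its log2 fold change was 0.27 (SE 0.10, limma BH adjusted p = 0.138), and it was called higher only with array weights (0.0289). Col7a1, the anchoring fibril, and Col8a1, Col8a2 and Col10a1, the short-chain network formers, stayed at or below 0.73, 0.12, 0.06 and 0.10 TPM. Col22a1, Col26a1 and Col28a1 reached 0.02, 0.22 and 0.07 TPM at most. Among all 20 compared chains outside the fibrillar and basement membrane classes, 1 fell, against 1.79% of all symbols. Their median log2 fold change was -0.09. Of the 8 that passed the 1 TPM filter 3 were called lower, against 7.59% of all symbols that passed it.

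Ratios between partner chains overlapped for type IV and stood apart for types I and VI. The ratio of Col4a1 to Col4a2 was 1.12 to 1.43 in treated and 1.2 to 1.29 in control libraries. For Col4a5 over Col4a6 it was 2.33 to 2.99 in treated and 2.35 to 3.07 in control libraries, and both ranges overlapped. The ratio of Col6a1 to Col6a2 was 1.47 to 1.55 in treated and 1.6 to 1.95 in control libraries, without overlap. The ratio of Col1a1 to Col1a2 was 0.977 to 1.19 in treated and 0.511 to 0.745 in control libraries, also without overlap but at TPM values of 0.54 to 9.26. Col3a1 exceeded Col1a1 by 16.3 to 24.5 times in treated and 8.29 to 18.6 times in control libraries. These ratios were not tested.

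**Figure D4:**
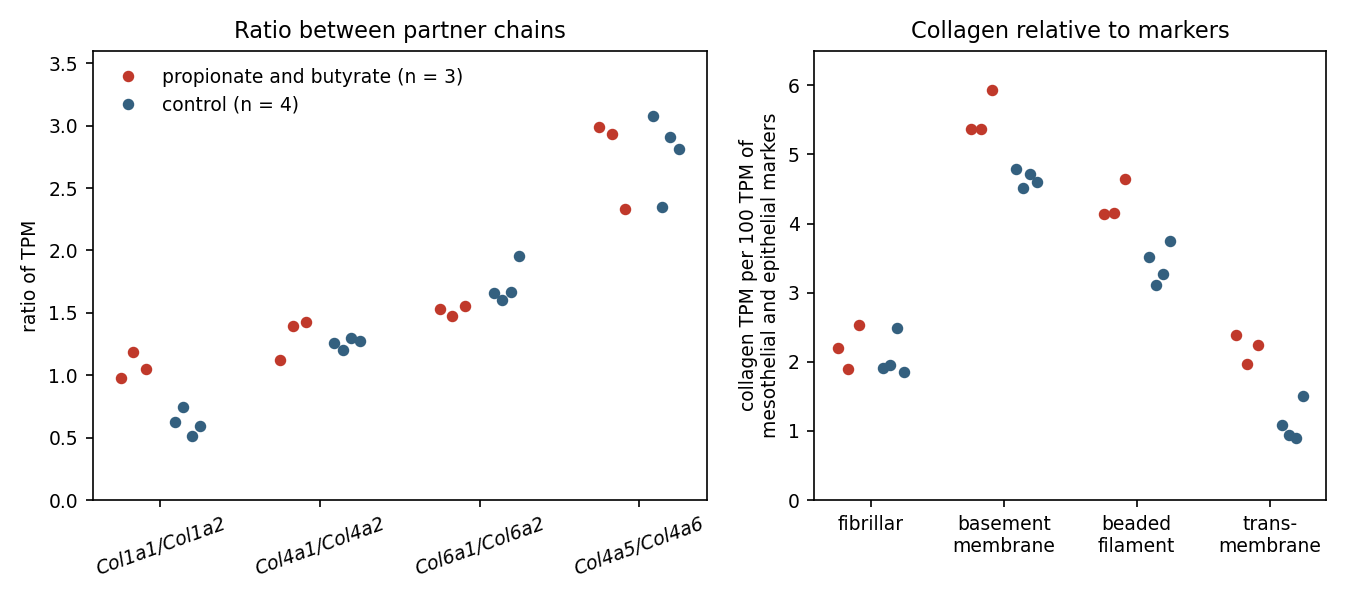
Left, ratio of TPM between partner chains in each treated and control library. Right, summed TPM of 4 collagen classes per 100 TPM of mesothelial and epithelial markers in the same libraries, where fibrillar chains overlap between groups and the other 3 classes lie higher in treated libraries.

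Several chains are neighbours in the genome. In the RefSeq gene order of assembly GRCm38.p6, Col4a1 lies next to Col4a2, Col4a4 next to Col4a3, Col4a6 next to Col4a5, Col6a2 next to Col6a1 and Col3a1 next to Col5a2, with no other protein-coding gene in between. Mean levels over all libraries were 19.7 and 15.6 TPM for Col4a1 and Col4a2, and 24.9 and 41.1 TPM for Col6a2 and Col6a1. They were 13.5 and 37.5 TPM for Col4a6 and Col4a5, and 0.04 and 0.0357 TPM for Col4a4 and Col4a3. Col3a1 and Col5a2 differed far more, at 29.8 and 1.16 TPM. Neighbouring type IV pairs were thus both abundant or both near 0. Whether reads were exchanged between neighbours that start from overlapping stretches was not tested. The libraries were stranded, but no source used here states whether the counting used strand.

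Promoter windows of the 3 chains that fell, of Col4a2 as the divergent partner of Col4a1, and of Col3a1 as the leading fibrillar chain are shown to set the letters beside these values. They run from 250 bases before to 50 bases after a RefSeq start site on GRCm38.p6, an earlier build than that of the expression table. Capitals mark the TATA box, spelled TATAAA. They also mark the CCAAT box, spelled as in its name, and the GC box, spelled GGGCGG, all searched on both strands, and no motifs overlap in these windows.
Col1a2, chr6:4505368-4505667, plus strand: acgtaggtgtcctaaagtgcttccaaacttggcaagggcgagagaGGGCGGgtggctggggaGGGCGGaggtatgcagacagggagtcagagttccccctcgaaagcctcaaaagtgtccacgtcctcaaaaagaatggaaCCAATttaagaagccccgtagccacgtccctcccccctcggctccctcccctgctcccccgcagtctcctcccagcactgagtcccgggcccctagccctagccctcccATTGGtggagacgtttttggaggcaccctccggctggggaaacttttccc
Col16a1, chr4:130047590-130047889, plus strand: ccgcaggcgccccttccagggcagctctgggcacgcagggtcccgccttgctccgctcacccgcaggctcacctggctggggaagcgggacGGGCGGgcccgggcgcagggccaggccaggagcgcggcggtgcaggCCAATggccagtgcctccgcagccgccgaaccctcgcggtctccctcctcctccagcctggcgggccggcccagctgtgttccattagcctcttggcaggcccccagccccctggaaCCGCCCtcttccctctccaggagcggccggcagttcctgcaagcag
Col4a1, chr8:11312777-11313076, minus strand: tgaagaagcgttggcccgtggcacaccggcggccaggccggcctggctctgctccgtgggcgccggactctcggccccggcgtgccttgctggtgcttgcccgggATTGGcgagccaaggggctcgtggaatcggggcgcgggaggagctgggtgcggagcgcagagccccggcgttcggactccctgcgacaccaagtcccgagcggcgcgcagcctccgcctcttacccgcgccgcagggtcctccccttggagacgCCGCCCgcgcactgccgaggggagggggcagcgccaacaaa
Col4a2, chr8:11312555-11312854, plus strand: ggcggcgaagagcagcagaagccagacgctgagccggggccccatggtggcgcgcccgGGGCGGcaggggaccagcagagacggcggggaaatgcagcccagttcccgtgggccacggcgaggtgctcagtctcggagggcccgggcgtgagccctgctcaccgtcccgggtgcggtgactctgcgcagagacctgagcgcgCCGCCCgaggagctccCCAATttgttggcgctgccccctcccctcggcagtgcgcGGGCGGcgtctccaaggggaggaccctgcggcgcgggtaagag
Col3a1, chr1:45311288-45311587, plus strand: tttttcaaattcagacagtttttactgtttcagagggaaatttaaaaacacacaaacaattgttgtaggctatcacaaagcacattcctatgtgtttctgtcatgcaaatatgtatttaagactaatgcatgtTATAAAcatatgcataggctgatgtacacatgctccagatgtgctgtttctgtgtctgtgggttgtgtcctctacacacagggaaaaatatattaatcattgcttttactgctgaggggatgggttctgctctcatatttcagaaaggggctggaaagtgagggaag

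The windows of Col4a1 and Col4a2 share 78 bases, read on opposite strands. Within the printed bases, those of Col1a2, Col16a1, Col4a1 and Col4a2 each held a CCAAT box and a GC box and no TATA box. Bases outside a window were not searched, so a TATA box beyond its ends would be missed. In the Col1a2 window 1 CCAAT match lay past the start site used, at bases 1 to 5. The Col3a1 window held the letters TATAAA, at -117 to -112 from the start site used, and neither of the other motifs. GC made up 61% of the Col1a2 window and 73.7% to 74.3% of the Col16a1, Col4a1 and Col4a2 windows, against 37.7% for Col3a1. In all, 35 collagen symbols had a window, 38 windows together, of which 13 held a CCAAT box, 23 a GC box and 5 a TATA box. Among all 32544 windows the shares were 37.4%, 35.9% and 13.6%. A match is a description of letters and not a bound site. No window was listed for Col1a1, Col2a1, Col4a3, Col5a2, Col9a3, Col12a1, Col14a1, Col22a1 and Col26a1.

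Genes that fold and modify collagen had negative log2 fold changes in 19 of 21 cases, where 65.6% of all symbols did. Ppib, a prolyl isomerase of the endoplasmic reticulum, averaged 350 TPM over all libraries and had a log2 fold change of -0.28 (limma BH adjusted p = 0.363 with the 1 TPM filter). Serpinh1, the collagen chaperone HSP47, had 214, 140 and 114 TPM in treated libraries, against 250, 355, 272 and 260 TPM in controls. P4hb, a subunit of prolyl 4-hydroxylase, had 184, 158 and 125 TPM in treated libraries, against 245, 315, 262 and 248 TPM in controls. Neither overlapped between groups, at log2 fold changes of -0.89 and -0.79, with limma BH adjusted p of 0.0707 and 0.0505, and of 0.0238 and 0.0215 with the 1 TPM filter. P3h4, a component of the lysyl hydroxylation complex, fell (-0.86, limma BH adjusted p = 0.0416). That call was lost without treated 2 or any 1 control library (0.0801 to 0.113), and with the 1 TPM filter it was kept without any 1 library (at most 0.047). Of 21 tested genes of this list 1 fell and 0 rose in limma, against 1.79% and 1.53% of all symbols (12 lower and 0 higher at an unadjusted p under 0.05, against 17.5% and 6.45%), with a median of -0.48, and 5 of 20 were called lower with the 1 TPM filter, against 7.59% of all symbols that passed it.

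All 11 tested genes that trim propeptides or cross-link fibrils had negative log2 fold changes, as did 65.6% of all symbols. Loxl2 and Loxl4, lysyl oxidase-like enzymes that cross-link collagen, fell by 0.96 and 0.86 on the log2 scale (limma BH adjusted p = 0.044 and 0.028). Without treated 2 or any 1 control library both calls were lost, and that of Loxl2 also without the third treated library (0.0536 to 0.128). Loxl2 had 19, 12.1 and 11.4 TPM in treated libraries, against 27.1, 31.5, 28.9 and 24 TPM in controls. Pcolce, which enhances removal of the C-propeptide, averaged 378 TPM and had a log2 fold change of -0.79 (adjusted p = 0.0812, and 0.0357 with the 1 TPM filter). Bmp1, the C-propeptide protease, had a log2 fold change of -0.73 (adjusted p = 0.0985). Of 11 tested genes 2 fell and 0 rose in limma, against 1.79% and 1.53% of all symbols (8 lower and 0 higher at an unadjusted p under 0.05, against 17.5% and 6.45%), with a median of -0.66, and 4 of 9 were called lower with the 1 TPM filter, against 7.59% of all symbols that passed it. Loxl4 passed that filter through control libraries alone.

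Among proteoglycans and other matrix partners, Bgn, biglycan, which binds collagen fibrils, fell. It had 36.5, 21 and 22.8 TPM in treated libraries, against 68, 105, 65.3 and 59.5 TPM in controls. Its log2 fold change was -1.45 (limma BH adjusted p = 0.031), a call lost without treated 2 or control 1, 2 or 3 (0.0584 to 0.076). Sparc, a collagen-binding matricellular protein, averaged 578 TPM, with a log2 fold change of -0.96 (adjusted p = 0.0667, and 0.0187 with the 1 TPM filter). Fn1, fibronectin, varied widely within both groups, at 59.8, 160 and 299 TPM in treated libraries, against 158, 90.9, 387 and 126 TPM in controls. Of 15 tested genes 1 fell and 0 rose in limma, against 1.79% and 1.53% of all symbols (9 lower and 0 higher at an unadjusted p under 0.05, against 17.5% and 6.45%), with a median of -0.30, and 4 of 7 were called lower with the 1 TPM filter, against 7.59% of all symbols that passed it.

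The partners of type IV collagen in the basement membrane included genes called in both directions. Hspg2, the heparan sulfate proteoglycan perlecan, fell, with 62.1, 43.7 and 41.2 TPM in treated libraries, against 115, 138, 124 and 98.6 TPM in controls (log2 fold change -1.28, limma BH adjusted p = 0.0265). Without control 1, 2 or 3 that p was 0.0551 to 0.0593. Lamc1, the common laminin gamma chain, fell by 0.84 on the log2 scale (adjusted p = 0.0443), a call lost without treated 2 or any 1 control library (0.077 to 0.122). Lama5 and Agrn, a laminin alpha chain and agrin, had log2 fold changes of -0.72 and -0.68 (adjusted p = 0.0815 and 0.0737, and 0.0426 and 0.0436 with the 1 TPM filter). Lamb3, the beta chain of the laminin that hemidesmosomes bind, rose. It had 1.08, 6.65 and 2.46 TPM in treated libraries, against 0.18, 0.07, 0.21 and 0.26 TPM in controls (log2 fold change 1.69, limma BH adjusted p = 0.0481). That call was lost without the third treated library or any 1 control library (0.0783 to 0.107). Of 14 tested genes 2 fell and 1 rose, against 1.79% and 1.53% of all symbols, with a median of -0.55, and 5 of 11 were called lower and 1 higher with the 1 TPM filter, against 7.59% and 4.3% of all symbols that passed it. Lamb3, the 1 higher call, passed that filter through treated libraries alone, and Lama4, not called, through control libraries alone.

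Collagen receptors did not share a direction. Itga1, the alpha chain of a collagen-binding integrin that tissue-resident T cells carry, rose, with 0.81, 1.48 and 0.55 TPM in treated libraries, against 0.16, 0.08, 0.14 and 0.16 TPM in controls (log2 fold change 0.75, limma BH adjusted p = 0.0394), a call lost without any 1 control library (0.0756 to 0.0927). Its values did not overlap, were highest in treated 2, as Cd8a was, and did not reach the 1 TPM filter. Cd8a had 113, 242 and 54.2 TPM in treated libraries, against 15.6, 14.8, 7.95 and 18 TPM in controls. The part of T cell content in the Itga1 values was not tested. Ddr1, a collagen receptor tyrosine kinase of epithelia, had 99.7, 67.8 and 57.6 TPM in treated libraries, against 128, 150, 131 and 123 TPM in controls (log2 fold change -0.85, adjusted p = 0.0532, and 0.0187 with the 1 TPM filter). Itgb1, the shared integrin beta chain, and Lair1, an inhibitory collagen receptor of leukocytes, had log2 fold changes of 0.03 and 0.04 (adjusted p = 0.938 and 0.942). Of 11 tested genes 0 fell and 1 rose in limma, against 1.79% and 1.53% of all symbols (2 lower and 2 higher at an unadjusted p under 0.05, against 17.5% and 6.45%), with a median of -0.07, and 1 of 6 was called lower and 0 higher with the 1 TPM filter, against 7.59% and 4.3% of all symbols that passed it.

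**Figure D5:**
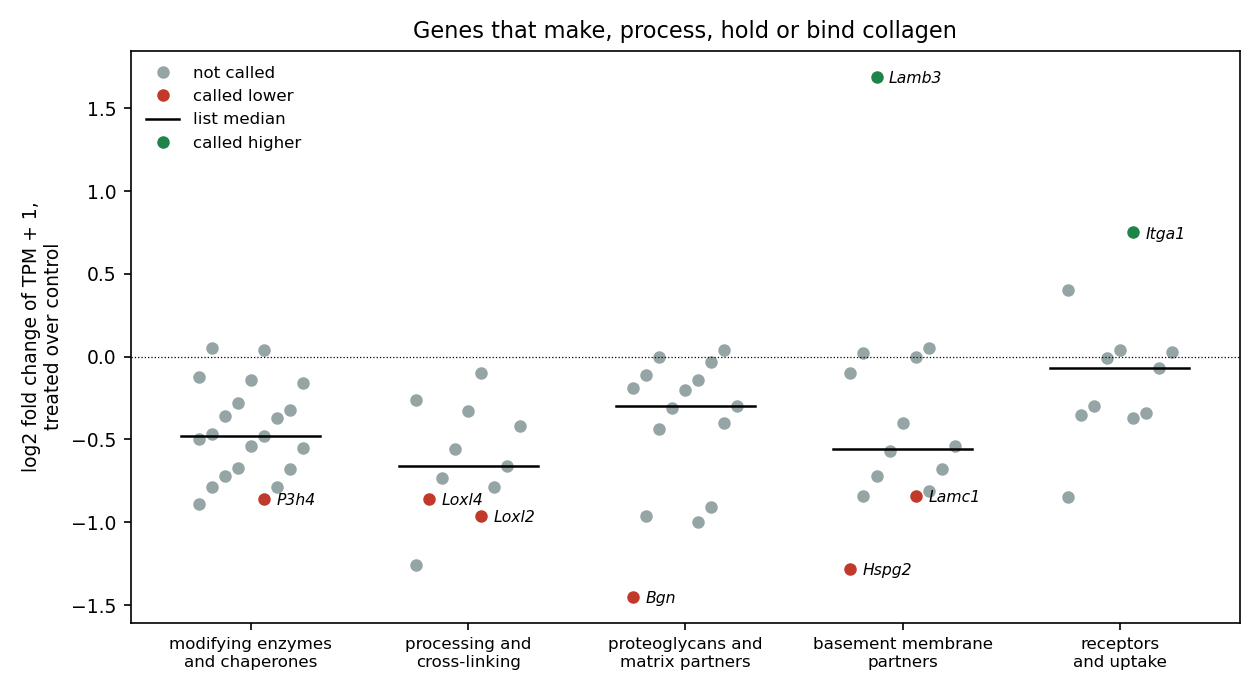
Log2 fold change of TPM + 1, treated over control (y axis), for each tested gene of 5 lists of genes that make, process, accompany or bind collagen, with list medians as bars. Called genes are named, and list medians run from -0.66 to -0.07.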

How the data were processed

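Messenger RNA of 7 libraries was measured, 3 treated and 4 control. Per the labels' protocols, RNA was extracted with TRIzol, selected for poly(A) and made into stranded libraries. Values are TPM in 1 table that the authors deposited, which has 149132 rows of transcripts with gene symbols. The submitters' processing notes name fastp, HISAT2, StringTie and the build mm39, with no role or version. TPM keeps no depth, so no counting interval was computed. Columns were matched to samples by name, and 1 treated column whose number no sample carries serves as the third treated library, with no pairing. No value column was left unused (0).

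Rows were added up by symbol, leaving out 1001 rows without a symbol (0.307% to 0.618% of TPM). Symbols above 0 in at least 3 libraries were compared on log2(TPM + 1), a scale that understates changes of low genes, with limma 3.58.1 in R 4.3.3, using an intensity trend, two-sided tests and Benjamini-Hochberg (BH) adjustment over all symbols. The model was tested on simulated data. The chains, classes, 5 gene lists and 7 marker lists were chosen with earlier results of these data known. Values per library are given for chains called or averaging at least 10 TPM. From other lists the 3 most abundant members and called members are named, and genes shown beyond that were chosen after their values were seen. Alternatives changed the pseudocount, filter, scaling, variance model, weights, block and threshold, and left out each library. Promoter windows are from RefSeq, GRCm38.p6. A gene of the basement membrane partner list is not reported here by name.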

Additional observations from a re-analysis of the deposited data

Results flagged for a closer look

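In 3 of the 38 compared chains 1 control library stood apart from the other 3, where chance alone gives about 1 in 20. All 3 chains were low. For Col5a3 control 3 was at 0.37 TPM, beside 0.06, 0.07 and 0.04 TPM in controls 1, 2 and 4 (gap over range 0.909). For Col26a1 control 2 was at 0.22 TPM and the other controls were listed at 0 (gap over range 1). With the others at 0 this ratio is 1 for any value above 0. For Col27a1 control 2 was at 0.10 TPM, beside 0.24, 0.26 and 0.25 TPM in controls 1, 3 and 4 (gap over range 0.875).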

How the results depend on the processing

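Every compared chain kept its direction where it was called, under each alternative run. Chains that were not called could change sign. With median-of-ratios scaling 25 of the 38 log2 fold changes were below 0, against 32 as deposited. Median-of-ratios scaling, removal of mitochondrially encoded genes, robust variance estimation, array weights, a pseudocount of 0.1 and the 1 TPM filter kept the calls of Col1a2, Col4a1 and Col16a1. A pseudocount of 5 and a filter of above 0 in at least 1 library ended all 3 calls, and the cause was not tested. A threshold of 0.01 ended them because their limma BH adjusted p were 0.0265 to 0.0472. The replicate block, which left out the third treated library, control 3 and control 4, ended them as well. Below, counts of chains called lower are given in all and then for fibrillar, basement membrane and other chains, and counts for the 5 lists are lower calls among enzymes and chaperones, processing and cross-linking, proteoglycans, basement membrane partners and receptors, then higher calls among basement membrane partners and receptors. With a pseudocount of 0.1, 1262 symbols were called in all, and 5 chains (1, 2 and 2) and 2, 3, 2, 3 and 2 list genes were called lower, and 1 and 1 list genes higher. With the 1 TPM filter, 1779 symbols were called in all, and 9 chains (3, 3 and 3) and 5, 4, 4, 5 and 1 list genes were called lower, and 1 and 0 list genes higher. With a 5 TPM filter, 1575 symbols were called in all, and 6 chains (1, 3 and 2) and 5, 4, 4, 5 and 1 list genes were called lower, and 0 and 0 list genes higher. With median-of-ratios scaling, 1890 symbols were called in all, and 3 chains (1, 1 and 1) and 2, 3, 2, 2 and 2 list genes were called lower, and 1 and 1 list genes higher. With mitochondrially encoded genes removed, 2162 symbols were called in all, and 5 chains (1, 2 and 2) and 4, 4, 3, 4 and 2 list genes were called lower, and 1 and 1 list genes higher. With robust variance estimation, 1122 symbols were called in all, and 4 chains (1, 2 and 1) and 2, 3, 3, 2 and 1 list genes were called lower, and 1 and 1 list genes higher. With array weights, 3327 symbols were called in all, and 10 chains (2, 5 and 3) and 8, 5, 5, 6 and 2 list genes were called lower, and 1 and 2 list genes higher. With a threshold of 0.1, 2504 symbols were called in all, and 11 chains (4, 4 and 3) and 5, 5, 6, 5 and 2 list genes were called lower, and 1 and 1 list genes higher. With no intensity trend, 530 symbols were called in all, and 2 chains (0, 1 and 1) and 0, 1, 1, 1 and 0 list genes were called lower, and 0 and 0 list genes higher. With a pseudocount of 5, 70 symbols were called in all, and 0 chains (0, 0 and 0) and 0, 1, 0, 1 and 0 list genes were called lower, and 0 and 0 list genes higher. With the third treated library and control 3 both left out, chosen after seeing the data, 585 symbols were called in all, and 1 chain (0, 0 and 1) and 0, 0, 0, 0 and 0 list genes were called lower, and 0 and 1 list genes higher. With no filter, 7 symbols were called in all, and 0 chains (0, 0 and 0) and 0, 0, 0, 0 and 0 list genes were called lower, and 0 and 0 list genes higher. With a threshold of 0.01, 4 symbols were called in all, and 0 chains (0, 0 and 0) and 0, 0, 0, 0 and 0 list genes were called lower, and 0 and 0 list genes higher. Array weights also called 1 chain higher, Col23a1. A replicate block on the numbers shared by treated and control libraries kept only treated 1, treated 2, control 1 and control 2. It called 0 symbols, 0 chains and 0 genes of any list, while 10 chains had an unadjusted p under 0.05 in limma. Same-numbered libraries correlated at -0.02 and -0.09 in their deviations from group means. So few pairs cannot show whether libraries that share a number were paired. Leaving out each library in turn, with either filter (for the 1 TPM filter chosen after seeing the data), gave 55 to 3363 symbols, 0 to 12 chains lower (0 to 3 fibrillar, 0 to 5 basement membrane and 0 to 4 other), and, for the lists in the same order, 0 to 9, 0 to 6, 0 to 5, 0 to 6 and 0 to 1 lower, and 0 to 1 and 0 to 2 higher. The most chains were called without treated 1. Depth is unknown, so no counting error can be given for the 21 compared chains averaging below 1 TPM.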
